A study of Mus musculus with 8 samples.

Results

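The aminoacyl-tRNA synthetases of 4T1 cells are described here, 36 genes of the 20189 in the table: 20 whose enzymes charge transfer RNA in the cytosol and 16 whose enzymes work in mitochondria. The family was chosen by name, as the known synthetase genes, and it was proposed after the differences between acetate and vehicle in these same libraries had been seen. It was therefore selected on that contrast, and all values for acetate against vehicle below are a description of the family and no evidence for it. All 36 genes were found in the table, and each had at least 167 reads in every library, so none was near the detection limit.

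4T1 is a mammary carcinoma line of the mouse that forms lung metastases, kept here as a wild-type culture in serum-containing medium, and all 8 libraries came from this 1 line. One group of 4 libraries came from cells given 5 mM acetate for 48 h and the other 4 came from cells given water as vehicle for the same time. Acetate is turned into acetyl-CoA by the cell, and the study asked how a larger supply of acetyl-CoA changes gene expression in metastatic cells. Libraries with the same number were treated as a pair, and values are normalised reads, scaled so that each library sums to 20000000, from libraries of 19.9 to 29.3 M reads (M, mega).

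Each synthetase joins an amino acid to its own transfer RNA, which then carries it to the ribosome. Mammalian cells keep a cytosolic set and a mitochondrial set, both made from nuclear genes, and the mitochondrial enzymes serve the few proteins coded by mitochondrial DNA. Many of the cytosolic genes are known targets of Atf4, a transcription factor that is made in greater amounts when amino acids run short or the endoplasmic reticulum is stressed, and that binds an amino acid response element in its targets.

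The element was looked for near the start sites of the synthetase genes. RefSeq promoter windows on GRCm38.p6, each from 250 bases before to 50 after the start site, were matched for 27 of the 36 genes. The motif TGATGNAAN, where N is any base, was searched on both strands and was found in 5 of 13 cytosolic windows (Aars, Gars, Iars, Tars and Yars), or 38.5%. It was found in 0 of 14 mitochondrial windows. Across all genes of the table with a window, 351 of 11819 held it, or 2.97%. A copy from each of these 5 genes is given with 10 bases on either side and the motif in capitals, read along the strand of the gene. In every copy but that of Yars the capitals are the reverse complement of the motif.
Aars, chr8:111033840-111033868, plus strand: agcgggtcacTTTTCATCAgagcgctctg
Gars, chr6:55037960-55037988, plus strand: tggctgcgctATTTCATCAtgcaccgggc
Iars, chr13:49682126-49682154, plus strand: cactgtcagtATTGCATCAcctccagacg
Tars, chr15:11399656-11399684, minus strand: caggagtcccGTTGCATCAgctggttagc
Yars, chr4:129189896-129189924, plus strand: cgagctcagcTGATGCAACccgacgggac
The copies shown began 9 bases after the start site in Aars, 31 before it in Gars, 7 after it in Iars, 16 before it in Tars and 4 after it in Yars. They are not every copy that the search found. A match of letters is a description and says nothing about whether Atf4 was bound there. No window was matched for Cars, Hars, Lars, Nars, Rars, Vars, Wars, Hars2 and Pars2.

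A further pair of motifs was searched in the same windows. The E-box CACGTG was in 4 of 13 cytosolic windows (Aars, Iars, Tars and Farsb) and in 1 of 14 mitochondrial ones (Ears2), against 11.0% of all windows. The CCAAT box was in 7 of 13 cytosolic and 6 of 14 mitochondrial windows, against 42.5% of all windows. Aars, Iars and Tars thus held all of the motifs searched, and none of these differences was tested.

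The cells carried the markers of an epithelial line. Epcam, Krt8, Krt18 and Cdh1 stood between 4319 and 20872 normalised reads in all 8 libraries, while Ptprc, Pecam1 and Cdh5, which define leukocytes and endothelium, reached at most 4.85. Cd68, a macrophage gene, lay between 66.7 and 191. Of the epithelial genes Cdh1 rose with acetate in each pair, by 0.15 on the log2 scale (SE 0.03). Epcam, Krt8 and Krt18 differed by 0.07, -0.06 and -0.05. Pdgfra, a gene of mesenchymal cells, rose by 0.52 on the log2 scale (SE 0.06) and its part in the results below was not tested. The replicate 1 libraries stood apart from the others, with 229 and 388 normalised reads of Pdgfra against 1036 to 1961 in the other 6. Counts and medians over groups of genes are therefore also given without replicate 1, chosen after seeing the data.

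The cytosolic genes were expressed at a higher level than the mitochondrial ones. In vehicle cells the cytosolic means ran from 1815 normalised reads for Farsb to 13119 for Vars, with a median of 4824. The mitochondrial means ran from 182 for Pars2 to 21893 for Lars2, with a median of 450.1. Per kb of exon, the scale on which genes can be compared, the median level was 902 for the cytosolic and 89.97 for the mitochondrial genes, and 39.1 over all genes. The highest cytosolic levels per kb were those of Vars (2339), Nars (2329) and Gars (2125), and the lowest that of Farsa (426). Farsa and Farsb code for the subunits of the phenylalanine enzyme, and Farsb stood at 693 per kb.

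Lars2, the mitochondrial leucine enzyme, was the exception among the mitochondrial genes. At 1974 per kb it stood above 17 of the 20 cytosolic genes, and by its mean over all libraries it ranked 65 among 20189 genes, the highest of the family. The other mitochondrial genes reached at most 304 per kb (Iars2). Of the 31-base stretches of Lars2, 0.923% were shared with other annotated genes, and sequence outside annotated genes was not compared. Iars2 had 23.6% of its stretches in common with other genes, mostly with Rab3gap2 on the opposite strand. Its level is uncertain to that extent, since the sources do not say whether the counting used strand. Overlaps with a gene on the other strand of 5.83 to 9.47% of exon bases were found for Cars2 (with Naxd), Hars (with Hars2), Vars2 (with Gm20483), Fars2 (with Nrn1) and Farsb (with Sgpp2).

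**Figure D1:**
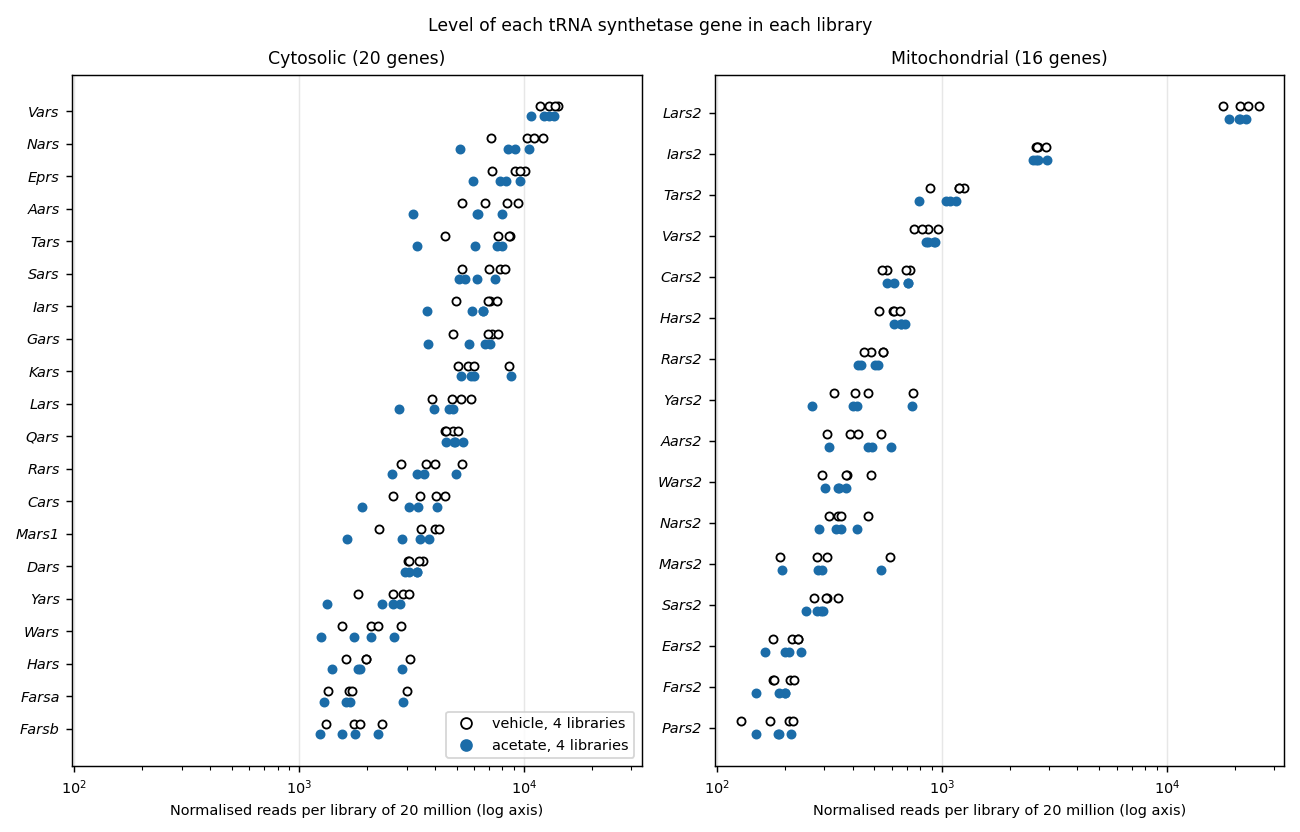
Normalised reads per library of 20000000 (horizontal log axis) for each of the 20 cytosolic (left) and 16 mitochondrial (right) synthetase genes, ordered by vehicle mean. Open points are the 4 vehicle and filled points the 4 acetate libraries; cytosolic vehicle means lie between 1815 and 13119, and Lars2 stands above all other genes of the family.

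Acetate was compared with vehicle by limma on log2(value + 1) with the replicate number as a block, over all 20189 genes, and a gene was called at a Benjamini-Hochberg adjusted p under 0.05. Of the 20 cytosolic genes 14 were called lower with acetate and 0 higher, and of the 16 mitochondrial genes 0 were called in either direction. None of the cytosolic genes above 0 and 6 of the mitochondrial genes (Aars2, Hars2, Rars2, Sars2, Tars2 and Yars2) had an unadjusted p under 0.05, and on recovered reads edgeR called 1 mitochondrial gene, Tars2, and DESeq2 0. Over all genes 2.65% were called lower (535) and 5.99% higher (1209), a split that median-of-ratios scaling moved to 821 lower and 1000 higher. Among the 4808 genes with a mean of at least 1000 normalised reads, a range that was chosen after the values were seen because all 20 cytosolic genes lie in it, 7.09% were called lower. Nothing is read from these shares, since the family was proposed with this contrast in view. Without the block limma called 0 genes of the table, or 0%, with 353 genes at an unadjusted p under 0.05. None of those 353 was a synthetase, the smallest unadjusted p of the family being 0.148 for Lars. In bulk cells, fewer cells of a kind and less RNA per cell cannot be told apart.

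The median cytosolic difference was -0.21 on the log2 scale, with single genes from -0.38 to 0.06. The median mitochondrial difference was -0.07, with single genes from -0.14 to 0.17, and the median over all genes was 0.02. In pairs 1 to 4 the cytosolic medians were -0.07, -0.25, -0.14 and -0.33. The mitochondrial medians were -0.04, -0.02, -0.05 and -0.08 in the same order. The cytosolic median thus lay below the mitochondrial one in every pair, by little in pair 1 and by most in pairs 2 and 4. This difference was not tested, since the family was selected on this contrast, and an exact sign permutation of 4 pairs cannot give a two-sided p below 0.125. Lower values in all 4 pairs were seen for 17 of the 20 cytosolic genes, against 11.4% of all genes. Among the 4808 genes with a mean of at least 1000 normalised reads, 1056 were lower in all 4 pairs. In pairs 2, 3 and 4 alone 18 cytosolic genes were lower in each, against 17.6% of all genes and 28.9% of those 4808. Vehicle and acetate values overlapped for all 36 synthetases, while 1.65% of all genes had groups that did not overlap.

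**Figure D2:**
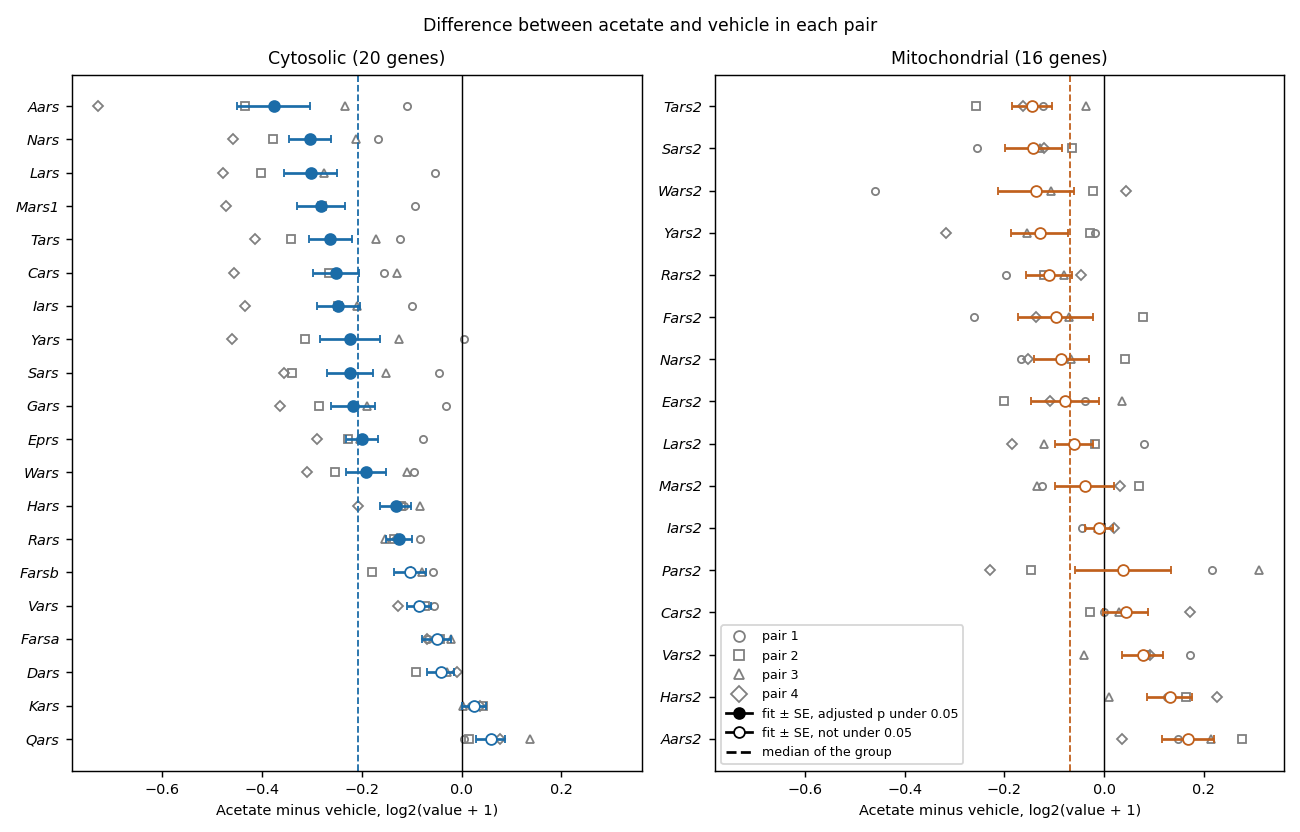
Acetate minus vehicle on the log2(value + 1) scale (horizontal axis) for each cytosolic (left) and mitochondrial (right) gene. Open grey symbols are the 4 pairs, large points the limma fit ± SE, filled where the adjusted p was under 0.05, and the dashed line is the median of the group (-0.21 and -0.07); 14 cytosolic and 0 mitochondrial points are filled.

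The synthetases fall into a pair of unrelated structural classes, and the largest differences were found in both. In class II, Aars, the alanine enzyme (chromosome 8, 111033144 to 111057664, plus strand), had 6711, 8347, 9372 and 5286 normalised reads in vehicle libraries 1 to 4 and 6221, 6174, 7973 and 3189 in acetate libraries 1 to 4. Acetate was lower within each pair, but the groups overlapped, as vehicle replicate 4 lay below 3 of the 4 acetate libraries. The fitted difference was -0.38 (SE 0.07, n = 4 pairs), a level 23.0% lower, and the single pairs gave -0.11, -0.43, -0.23 and -0.73. An overlap with Exosc6 on the same strand holds 14.3% of the exon bases of Aars.

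Nars, the asparagine enzyme, had 10258, 11037, 12141 and 7141 normalised reads with vehicle and 9134, 8487, 10479 and 5198 with acetate. It was lower in each pair, most in pair 4, with a fitted difference of -0.30 (SE 0.04), a level 19.0% lower. Tars, the threonine enzyme (chromosome 15, 11382301 to 11399665, minus strand), had 8652, 7650.3, 8551 and 4447 with vehicle and 7941, 6032, 7592 and 3336 with acetate. The order of libraries differed from that of Aars and Nars, with replicate 1 the highest of the vehicle group, and yet acetate was lower in each pair, with a fitted difference of -0.26 (SE 0.04).

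Of the other class II genes, Sars (serine) and Gars (glycine) fell by 0.22 and 0.22 on the log2 scale, and Hars (histidine) fell by 0.13. Dars (aspartate), Farsa and Farsb had fitted differences of -0.04, -0.05 and -0.10 and were not called. Kars, the lysine enzyme (chromosome 8, 111993443 to 112011323, minus strand), had the smallest difference of the cytosolic genes. It stood at 8596, 5638, 5956 and 5102 normalised reads with vehicle and 8711, 5805, 5967 and 5238 with acetate. Each acetate library was slightly above its own vehicle library, and replicate 1 was far above the others in both groups, with a fitted difference of 0.03 (SE 0.02). In all, 6 of 10 class II genes were called lower, with a median of -0.17, and 6 without replicate 1, with a median of -0.21.

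In class I, Lars, the leucine enzyme, had 4778, 5255, 5822 and 3871 normalised reads with vehicle and 4607, 3975, 4805 and 2776 with acetate. Pair 1 differed little and pairs 2 and 4 most, at -0.05, -0.40, -0.28 and -0.48 in order, and the fit gave -0.30 (SE 0.05). Mars1, the methionine enzyme that charges both the initiator and the elongator transfer RNA (chromosome 10, 127296221 to 127311786, minus strand), had 4021, 3468, 4178 and 2256 with vehicle and 3768, 2857, 3437 and 1626 with acetate. Replicate 4 was again the lowest in both groups, and the fitted difference was -0.28 (SE 0.05), or 17.7% lower.

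Iars, the isoleucine enzyme (chromosome 13, 49682100 to 49734267, plus strand), had 7048, 6924, 7561 and 4984 normalised reads with vehicle and 6576, 5832, 6541 and 3690.0 with acetate, a fitted difference of -0.25 (SE 0.04). Of its 31-base stretches 14.7% were shared with other genes, mostly with Gm4849, which had 5.05 normalised reads on average. Cars, the cysteine enzyme (chromosome 7, 143557230 to 143600090, minus strand), had 3442, 4055, 4466 and 2614 with vehicle and 3089.8, 3373, 4081 and 1906 with acetate, a fitted difference of -0.25 (SE 0.05). In both genes each acetate library was below its own vehicle library, and the groups overlapped. For Iars the overlap came from vehicle replicate 4 alone, while for Cars acetate replicate 3 also lay above vehicle replicates 1 and 2. Yars, the tyrosine enzyme (chromosome 4, 129189760 to 129219607, plus strand), had 2602, 2893, 3062 and 1832 with vehicle and 2609, 2328, 2806 and 1332 with acetate. Pair 1 went slightly the other way here, the single exception among the 14 genes called lower, and the fitted difference was -0.22 (SE 0.06).

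Of the other class I genes, Eprs, whose protein charges both glutamate and proline and is counted here by its glutamate part, fell by 0.20 on the log2 scale, Wars (tryptophan) fell by 0.19 and Rars (arginine) fell by 0.13. Vars (valine) and Qars (glutamine) were not called by limma. Vars, the most abundant cytosolic gene, ranged from 11711 to 14163 normalised reads with vehicle and 10723 to 13628 with acetate, a fitted difference of -0.09, and had a limma adjusted p of 0.0516, next to the threshold. On recovered reads edgeR and DESeq2 both called Vars lower, as did limma with median-of-ratios or quantile scaling. Qars ranged from 4455 to 5075 normalised reads with vehicle and 4471 to 5356 with acetate, a fitted difference of 0.06 and the highest of the cytosolic set. In all, 8 of 10 class I genes were called lower, with a median of -0.21, and 8 without replicate 1, with a median of -0.26.

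Some cytosolic synthetases are held together in the multisynthetase complex on the scaffold proteins Aimp1, Aimp2 and Eef1e1. Of its 8 enzymes in the family, 5 were called lower (Eprs, Iars, Lars, Mars1 and Rars), with a median of -0.16. Of the 12 cytosolic genes outside it, 9 were called lower, with a median of -0.22. Without replicate 1 these counts were also 5 and 9, and the medians -0.19 and -0.28. Without replicate 2 the complex enzymes called were Eprs, Iars and Mars1, without replicate 4 Iars and Mars1, and without replicate 3 none. Outside the complex Nars was called in each of these fits, with Cars, Tars or both. Among the scaffolds Eef1e1 fell by 0.14 on the log2 scale, while Aimp1 and Aimp2 had differences of -0.07 and -0.08 and were not called, and without replicate 1 or with DESeq2 none of the 3 was called. Gars and Kars each give the enzyme of both compartments from a single gene, and Gars was called lower at -0.22 while Kars was not at 0.03. The difference between them was not tested.

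No difference of a mitochondrial gene was called by limma with the block, while edgeR and some other settings called Tars2 lower. Tars2, the mitochondrial threonine enzyme (chromosome 3, 95739976 to 95760206, minus strand), had 1185, 1251, 1188 and 880.4 normalised reads with vehicle and 1089, 1046, 1159 and 786 with acetate. Each acetate library was lower than its vehicle library, the fitted difference was -0.14 (SE 0.04), and the limma adjusted p of 0.0502 lay at the threshold. Sars2, the serine enzyme (chromosome 7, 28741992 to 28753871, plus strand), had 346, 309, 306 and 269.6 with vehicle and 289.6, 296, 279 and 248 with acetate, a difference of -0.14 (SE 0.06) that was negative in all pairs. Wars2, the tryptophan enzyme (chromosome 3, 99141068 to 99239186, plus strand), had 481, 379, 373 and 291 with vehicle and 349, 373, 346 and 300.4 with acetate. Its difference of -0.14 (SE 0.08) came mostly from pair 1, and pair 4 went the other way.

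Aars2, the mitochondrial alanine enzyme (chromosome 17, 45506841 to 45520843, plus strand), went against its cytosolic partner. It had 537, 388, 421 and 307 normalised reads with vehicle and 595, 470.1, 489 and 315 with acetate, higher with acetate in each pair. The fitted difference of 0.17 (SE 0.05) was the highest of all 36 genes and was not called. Iars2, the isoleucine enzyme (chromosome 1, 185284726 to 185329396, minus strand), had the smallest difference of the mitochondrial set, with 2608, 2674, 2648 and 2892 normalised reads with vehicle and 2529, 2663, 2626 and 2929.6 with acetate. The highest vehicle library was 1.11 times the lowest, the least of the mitochondrial genes, and the fit gave -0.01 (SE 0.03).

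Lars2 (chromosome 9, 123366927 to 123462666, plus strand) had 17842, 21168, 23008 and 25554 normalised reads with vehicle and 18859, 20907, 21173 and 22468 with acetate. Unlike most cytosolic genes it was highest in replicate 4 and lowest in replicate 1, and its fitted difference was -0.06 (SE 0.04). Nars2 (chromosome 7, 96951505 to 97064758, plus strand) had 468, 343, 355 and 314 with vehicle and 417, 354, 339 and 282 with acetate. Mars2 (chromosome 1, 55237177 to 55248470, plus strand) had 586, 279, 308 and 189.7 with vehicle and 538, 293, 280.3 and 194 with acetate. Both were highest in replicate 1 of each group, Mars2 by the most, and their fitted differences were -0.09 and -0.04.

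Cars2, the cysteine enzyme (chromosome 8, 11513977 to 11550783, minus strand), had 570.3, 721, 689 and 541 normalised reads with vehicle and 569.8, 707, 703 and 610.2 with acetate. Yars2, the tyrosine enzyme (chromosome 16, 16302965 to 16309640, plus strand), had 742, 409, 467 and 329.6 with vehicle and 732, 401, 420.0 and 264 with acetate. Cars2 showed no common direction over the pairs and Yars2 was lower in each, with fitted differences of 0.04 and -0.13. Of the other 6 mitochondrial genes, Rars2, Fars2 and Ears2 had differences of -0.11, -0.10 and -0.08. Pars2, Vars2 and Hars2 had 0.04, 0.08 and 0.13, and none of the 6 was called. The mitochondrial genes rest on fewer reads, and the median SE of the fit was 0.05 for them and 0.04 for the cytosolic genes.

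For 13 amino acids the family holds a cytosolic and a mitochondrial gene whose symbols differ only by the final number. In the fit the cytosolic gene had the lower value in 13 of 13 such pairs of genes, and in 8 of them it was lower in every pair of libraries. Phenylalanine, glutamate and proline also have genes in both sets, but without such a pair of symbols, and were not counted. There Eprs (-0.20) lay below Ears2 (-0.08) and Pars2 (0.04), and Farsb (-0.104) below Fars2 (-0.097), while Farsa (-0.05) lay above Fars2. Of the 13, the alanine genes were farthest apart, Aars minus Aars2 being -0.26, -0.71, -0.45 and -0.76 on the log2 scale in pairs of libraries 1 to 4. The cysteine genes followed, at -0.15, -0.24, -0.16 and -0.63. The arginine genes were nearest, at 0.11, -0.02, -0.07 and -0.08, a spread around 0. For tryptophan the difference ranged from -0.35 to 0.37, with pair 1 above 0 and pairs 2 and 4 well below it. In pairs 2, 3 and 4 alone the mean difference was below 0 for 13 of 13 amino acids, and each of the 3 pairs was below 0 for 12. These differences were not tested, since the family was selected on this contrast. The level of the cytosolic gene was the higher one for 12 of 13 amino acids, per kb as well, and leucine was the exception.

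**Figure D3:**
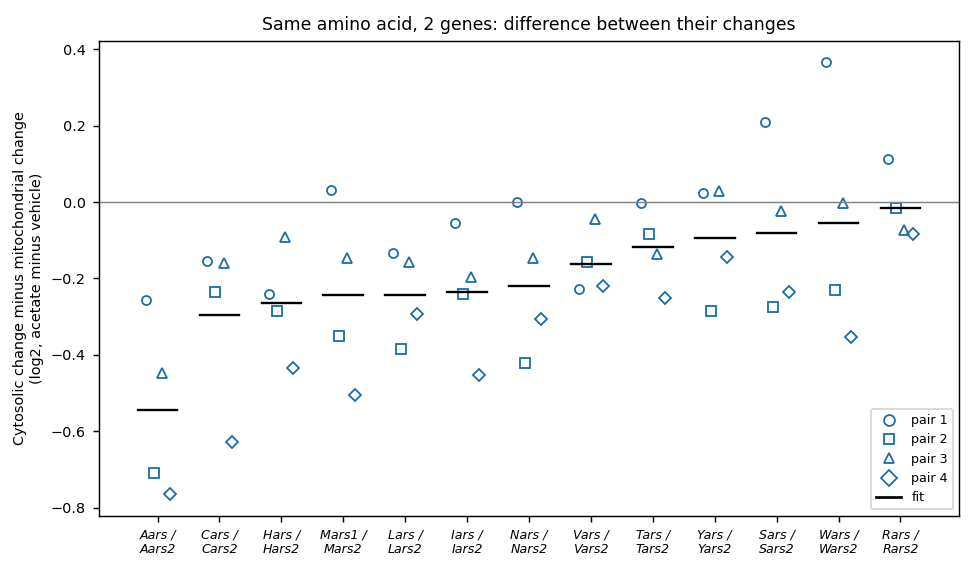
Cytosolic change minus mitochondrial change (vertical axis, log2 of acetate over vehicle) for the 13 amino acids whose cytosolic and mitochondrial gene symbols differ only by the final number. Phenylalanine, glutamate and proline are left out. Symbols are the 4 pairs of libraries and black lines the fit; all 13 lines lie below 0, and pair 1 lies at or above 0 for several amino acids.

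The genes usually listed as Atf4 targets were set beside the rest of the cytosolic genes. Of the 13 so listed limma called 12 lower, all but Vars, with a median of -0.25. Of the 7 not so listed 2 were called lower, Hars and Rars, with a median of -0.05. Without replicate 1 the counts were again 12 of 13 and 2 of 7, with medians of -0.30 and -0.04. Without replicates 2, 3 and 4 limma called only 5, 3 and 4 cytosolic genes lower, and all of them were among the 13. On recovered reads edgeR called 13 of 13 and 3 of 7 lower, and DESeq2 12 of 13 and 2 of 7, with Yars and not Vars as the exception among the 13. All 5 genes with the element in their window were called lower, from -0.22 for Gars to -0.38 for Aars. Mars1, Sars and Eprs were also called lower, and their windows held no copy of these letters. The lists were drawn from textbook knowledge with earlier results of these data known.

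**Figure D4:**
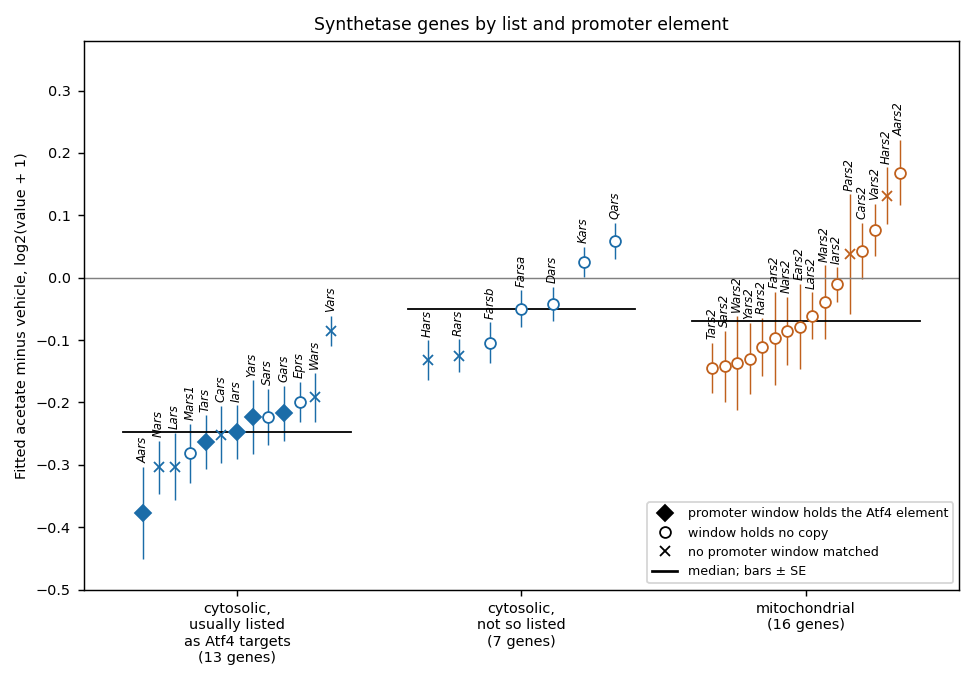
Fitted acetate minus vehicle on the log2(value + 1) scale ± SE (vertical axis) for the 36 genes, grouped as cytosolic and usually listed as Atf4 targets, cytosolic and not so listed, and mitochondrial. Diamonds mark genes whose promoter window holds the Atf4 element, crosses genes with no window matched, and black lines the medians of -0.25, -0.05 and -0.07.

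Atf4 itself had 4529, 6033, 7345 and 2573 normalised reads with vehicle and 4102, 4287, 5503 and 1900.3 with acetate. It was lower in each pair, as Aars was, and fell by 0.37 on the log2 scale (SE 0.05). Of 20 genes of the Atf4 pathway 9 were called lower and 1 higher, with the largest fall for Atf5, a related factor, at -0.72 (SE 0.13), and the single rise for Ddit4, an inhibitor of mTORC1, at 0.11 (SE 0.03). On recovered reads edgeR called 10 of the 20 lower and DESeq2 9, and neither called Ddit4 or any other higher. Without replicate 1 limma called 11 lower and 0 higher. The kinases that start the response, Eif2ak1, Eif2ak2, Eif2ak3 and Eif2ak4, were not called, with differences between -0.02 and 0.15.

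Among 13 other genes of transfer RNA charging 4 were called lower and 0 higher, and none was higher at an unadjusted p under 0.05. On recovered reads edgeR called 6 lower and DESeq2 2, and both 0 higher. Without replicate 1 limma called 3 lower, Tarsl2 no longer among them, and 0 higher. Xpot, which exports transfer RNA from the nucleus, had 6476, 5232, 5799 and 3643 normalised reads with vehicle and 5552, 3829, 4440.2 and 2511 with acetate. It was lower in each pair and fell by 0.40 on the log2 scale (SE 0.04), more than any of the 36 synthetases. Pstk, which acts on the selenocysteine transfer RNA, and Tarsl2, a further threonine enzyme, fell by 0.28 and 0.24. The enzymes that make mitochondrial glutaminyl-tRNA without a synthetase of its own, Qrsl1, Gatb and Gatc, had differences of -0.18, -0.07 and -0.11 and were not called.

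The levels also differed between replicate numbers. A moderated F test over the replicate numbers in the same limma fit called 35 of the 36 synthetases, all but Hars2, against 58.2% of all genes. It uses the same residual spread as the acetate contrast on which the family was selected, so it is not independent of that choice. Among the genes with a mean of at least 1000 normalised reads, where the 20 cytosolic genes lie, 87.6% were called, so that the share of the cytosolic genes is to be read against that level. In the vehicle group replicate 4 was the lowest library for 17 of the 20 cytosolic genes, and replicate 1 for Dars, Qars and Sars. Replicate 4 was the lowest vehicle library for 11 of 16 mitochondrial genes and for 26.1% of all genes. Within the vehicle group the highest level was 1.14 to 2.25 times the lowest for cytosolic genes, with a median of 1.69. For mitochondrial genes it was 1.11 to 3.09 times, with a median of 1.38.

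The cytosolic genes together took 0.584, 0.558, 0.599 and 0.425% of all normalised reads in vehicle libraries 1 to 4. In the acetate libraries they took 0.555, 0.475, 0.541 and 0.351%. Replicate 4 was thus the lowest in both groups, and its acetate library the lowest of all. The mitochondrial genes took 0.139 to 0.170%, most of it from Lars2. The fall with acetate was also the largest in pair 4 for 15 of the 20 cytosolic genes, and for 13 of the 14 called lower. Those 14 were called from the same pair differences. Pair 4 held the largest fall for 4 of the 16 mitochondrial genes, and the share over all genes was not counted.

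Atf4 ran in the same order in the vehicle libraries, lowest in replicate 4, then 1, 2 and 3, as did Aars, Cars, Lars, Nars and Yars. This order was held by 3.47% of all genes and by 2 of the 16 mitochondrial genes. Another 8 cytosolic genes, Tars and Kars among them, had the order 4, 2, 3 and 1. That order was held by 10.7% of all genes and by 4 of the 16 mitochondrial genes. These orders were looked for after the values were seen, and 4 libraries are too few for a correlation. What set the replicate numbers apart is not stated in the sources used here.

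**Figure D5:**
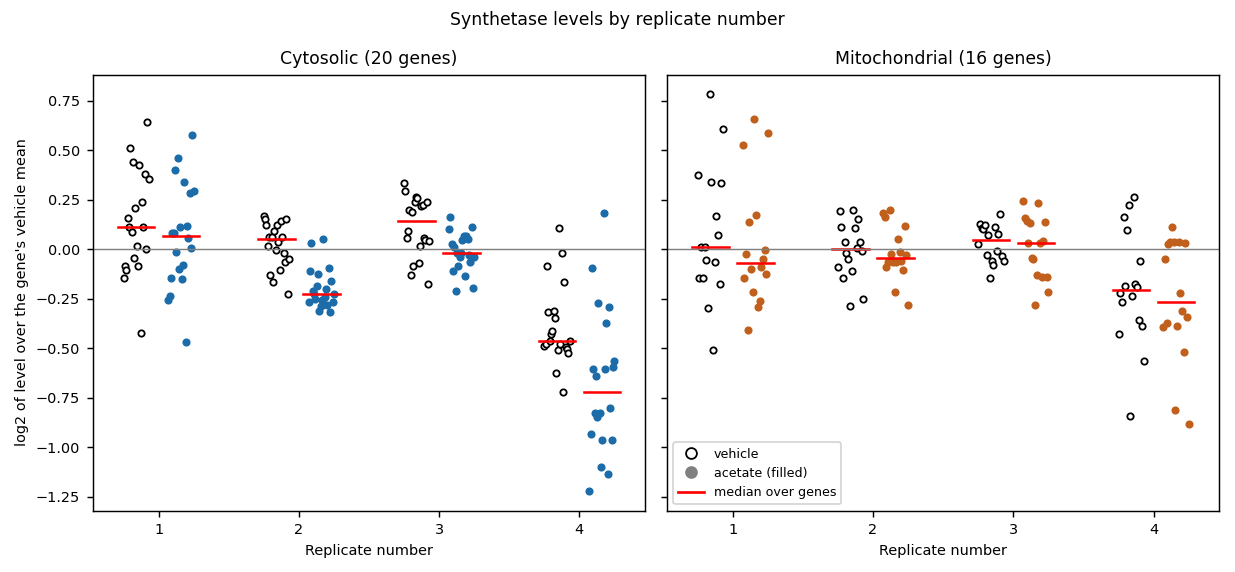
Level of each gene relative to its own vehicle mean (vertical axis, log2) by replicate number, for cytosolic (left) and mitochondrial (right) genes. Open points are vehicle, filled points acetate and red bars the medians over genes; replicate 4 is low for most cytosolic genes in both groups and lowest with acetate.

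The count of cytosolic genes called lower depended on single pairs. It was 14 without replicate 1, 5 without replicate 2 (Eprs, Iars, Mars1, Nars and Tars), 3 without replicate 3 (Cars, Nars and Tars) and 4 without replicate 4 (Cars, Iars, Mars1 and Nars). Nars was called in all 4 of these fits. The direction did not depend on them, and 18 of the 20 cytosolic genes had a negative difference in each fit, with the median between -0.16 and -0.26. The mitochondrial median lay between -0.036 and -0.075 in the same fits.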

How the data were processed

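Messenger RNA of 4T1 cells was measured in 4 acetate and 4 vehicle libraries, taken as 4 pairs by number. Libraries were stranded and selected for poly-A RNA per the labels, and per the study's methods reads were aligned to the mouse transcriptome of build GRCm38 (mm10) with STAR and counted per gene. The submitters' processing notes also name HTSeq. Whether the counting used strand is not given in the sources used here. The values deposited are a signal that the authors normalised by scaling each gene's reads to the library total, here 20000000. They kept genes expressed in enough libraries (each of the 20189 was above 0 in at least 4). Every value was a whole number of reads times a step, within a tolerance of 0.1, for 100% of values in each library, which gave the depth. In vehicle replicate 3 the step was too near 1 to tell from rounding, so count tests served as alternatives only.

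Symbols, exons and gene spans came from GENCODE M21 (GRCm38, counted from 1), with Mars1 listed there as Mars. limma 3.58.1 under R 4.3.3 (eBayes with an intensity trend, two-sided p) was fitted to log2(value + 1) with treatment and replicate number, without a filter on low genes. Fold changes on this scale understate those of low genes. The fit was also run on simulated counts that had the replicate means built in and changes larger than any synthetase difference here. That run therefore cannot show whether the pairing holds or how sure calls of this size are. Alternatives were no block, pseudocounts of 0.1 and 5, a mean above 10 units, median-of-ratios and quantile scaling, edgeR 4.0.16 and DESeq2 1.42.0 on the recovered reads, and leaving out each pair.

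The block was used because same-numbered libraries share a code in their labels, which pairs them. Their deviations from the group means correlated across 18188 genes at 0.81, 0.27, 0.20 and 0.69 for replicates 1 to 4. The study counts them as independent experiments. The p-values of the fit with the block measure the spread of the acetate-minus-vehicle differences over the 4 pairs, moderated over all genes. They do not measure the spread between replicate numbers. The members, lists, tests and the choice of the block were made with earlier results of these data known. Values in every library are given for the 8 cytosolic and 4 mitochondrial genes with the largest fitted difference, the gene of each set with the smallest, any gene called against the direction of its set (there was none), and the mitochondrial partners of the first 8. Of the other lists the largest rise and fall called are given, along with genes whose values were seen first. A few items are not reported here, and counts include them.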

Additional observations from a re-analysis of the deposited data

Results flagged for a closer look

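Each of the 36 synthetases was checked for a single library far from the other 3 of its group, by Dixon's ratio at the 95% level. Of the 72 groups of 4 libraries tested, 0 stood out, where chance alone gives about 1 in 20.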

How the results depend on the processing

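The calls depended on the pairing by number. With no replicate block 0 genes of the table and 0 cytosolic synthetases were called by limma, with 353 genes of the table and 0 synthetases at an unadjusted p under 0.05. With the block limma called 1744 genes, edgeR 2400 and DESeq2 1126. Leaving out a pair gave 409 to 1662 genes of the table and 3 to 14 cytosolic synthetases called lower; the low counts came without replicates 2, 3 and 4 (617, 409 and 539 genes), while 1662 genes and 14 cytosolic synthetases were called without replicate 1, and the cause was not tested. Under the other scalings, pseudocounts, filter and tools with the block, 13 to 16 cytosolic genes were called lower and 0 higher. Among the mitochondrial genes 1 was called lower, Tars2, with a pseudocount of 5, with the filter at a mean above 10 units, with median-of-ratios and quantile scaling and with edgeR, and 1 was called higher, Aars2, with that filter. The cause was not tested. The mitochondrial median was -0.096 with quantile scaling and ran from -0.036 (without replicate 1) to -0.075 when a pair was left out. The negative sign of 18 of the 20 cytosolic genes and of both medians held in each of the 13 fits. Scaling moved the split of all calls: 69.3% were higher with acetate under the authors' scaling and 54.9% with median-of-ratios scaling (1000 higher, 821 lower). Of the 36 synthetases, 25 to 35 differed between replicate numbers when a pair was left out.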

Other observations

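The factors that bring charged transfer RNA to the ribosome were counted as well. Of the 6, 0 were called in either direction by limma, with differences from -0.10 to 0.05 on the log2 scale. Eef1a1, which carries aminoacyl-tRNA to the cytosolic ribosome, had 200805 ± 27609 normalised reads with vehicle (SD, n = 4) and 190038 ± 20769.5 with acetate, a difference of -0.08 (SE 0.03). Tufm, its mitochondrial counterpart, had 2038 ± 548 and 2128 ± 663, a difference of 0.05 (SE 0.04). At an unadjusted p under 0.05 there were 2, Eef1a1 and Eef1b2, both lower with acetate. On recovered reads edgeR called 2 of the 6 lower and DESeq2 1, and without replicate 1 limma called 1 lower, Eef1b2.

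Among the Atf4 targets that make or hydrolyse small molecules, Asns, which makes asparagine, the substrate of Nars, had 5322, 7427, 8012 and 4391 normalised reads with vehicle and 4368, 4827, 6790.1 and 2761 with acetate. It was lower in each pair and fell by 0.45 on the log2 scale (SE 0.06). Chac1, which breaks down glutathione, had 397, 860.3, 1107 and 139 with vehicle and 312, 456, 708 and 82.7 with acetate and fell by 0.66 (SE 0.08). Both were lowest in replicate 4 of each group, as Nars and Atf4 were. Atf5, Trib3, Sesn2 and Ddit3 of the same pathway list were instead lowest in replicate 1 of each group. These genes were named after their values were seen.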
